A study of Mus musculus with 2 samples.

Results

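The 10 genes described here belong to the Notch pathway and were followed in limb muscle tissue of mouse embryos: the ligands Dll1, Jag1 and Jag2, the receptors Notch1 and Notch2, the target genes Hes1, Hey1, Hey2 and Heyl, and the related gene Hes6. They were found by symbol, and all 10 members were present among the 32285 genes of both count matrices. The 2 groups were single-cell RNA libraries of wild-type C57Bl/6 embryos at the embryonic ages E12.5 and E15.5, given in days, 1 library per age. Neither group carried a mutant allele or was treated. Forelimb and hindlimb muscle tissue was pooled in each library, and the number and sex of the embryos behind a library are not given in the labels.

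In the Notch pathway a ligand on 1 cell binds a receptor on its neighbour, the receptor is cut by proteases, and its inner part enters the nucleus and joins the DNA-binding protein RBPJ to turn on targets of the Hes and Hey families. These targets are basic helix-loop-helix repressors. In developing muscle the pathway is known for holding Pax7-expressing progenitors back from differentiation, while differentiating myoblasts that express the myogenic factor Myog are known to present ligand. In blood vessels it is known for its part in arterial endothelium and in the smooth muscle and pericytes around the vessel, together called mural cells.

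The libraries held 12941 barcodes with 34907675 UMIs (unique molecular identifiers, each marking a captured RNA molecule) at E12.5 and 5780 barcodes with 46966083 UMIs at E15.5. After filtering, 11001 cells with a median of 2321 UMIs and 3916 cells with a median of 9291 UMIs were left. The libraries shared 17 barcode sequences, 11 of them among the kept cells of both. Levels are given as CPM, the UMIs of a gene per 1000000 UMIs of the summed cells of a group, and 95% intervals are given in brackets. With 1 library per age there was no test and no replicate error, and every interval covers counting error only.

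Cells were sorted into classes from clusters made without the 10 members, and each class is named after the markers it resembles. The muscle-lineage-like class held 600 cells at E12.5 (median 3746.5 UMIs) and 397 cells at E15.5 (median 14256 UMIs), and 23 of its 25 markers were at least 2-fold above the rest of the library at both ages. Within it, a cell with at least 1 Pax7 UMI and none of Myog was called Pax7-positive, and the reverse Myog-positive. This gave 172 Pax7-positive and 241 Myog-positive cells at E12.5, with 19 cells that had both and 168 with neither. At E15.5 there were 195 Pax7-positive cells, 115 Myog-positive cells, 52 with both and 35 with neither. Median depth was close between the states, 3814.5 against 3800 UMIs at E12.5 and 14498 against 13766 UMIs at E15.5. At E12.5, 102 of the 172 Pax7-positive cells rested on exactly 1 Pax7 UMI and 46 of the 241 Myog-positive cells on exactly 1 Myog UMI. In connective-like cells, which should lack these factors, 0.189% had a Pax7 UMI and 1.08% a Myog UMI at E12.5 (median 2297.5 UMIs), and 0.603% and 5.43% did at E15.5 (median 9422.5 UMIs).

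Promoter windows show the letters that 2 kinds of DNA-binding protein of this system recognise. RefSeq promoter windows of build GRCm38.p6, from 250 bases before to 50 bases after a start site, were found for 7 of the 10 members (9 windows), and Hes1, Hey1 and Heyl had none. They were searched on both strands for GTGGGAA, a site letter sequence known for RBPJ (reverse TTCCCAC), and for CAGCTG, an E-box that myogenic helix-loop-helix factors are known to bind and that reads the same on both strands. The 2 motifs did not overlap in any window shown. GTGGGAA was found in the window of Hey2 alone among the 7 members, and it occurs in 6.38% of all 32851 windows. CAGCTG was found in 4 of the 9 windows, that of Jag1, 1 of Dll1 and both of Hes6, and it occurs in 16.3% of all windows. Another Dll1 window, at chr17:15375774-15376073, held no match of either motif and is not shown. The Hey2 window is shown because it held GTGGGAA on each strand, 207 bases and 4 bases before the start. Both Hes6 windows and the Dll1 window with CAGCTG are shown. These 2 genes were the ones counted as at least 2-fold higher in Myog-positive cells at both ages. The Jag1 window, not shown, held CAGCTG 82 bases before the start, and Jag1 was higher in Pax7-positive cells at E15.5. Jag2, higher in Myog-positive cells at E15.5, had no match of either motif. A link between the motif and the levels was not tested. Capitals mark the matched motif, and a match describes the letters and not a bound site. The windows lie at chr10:30842734-30843033, chr1:91413989-91414288, chr1:91413173-91413472 and chr17:15376883-15377182, all on the minus strand.
Hey2: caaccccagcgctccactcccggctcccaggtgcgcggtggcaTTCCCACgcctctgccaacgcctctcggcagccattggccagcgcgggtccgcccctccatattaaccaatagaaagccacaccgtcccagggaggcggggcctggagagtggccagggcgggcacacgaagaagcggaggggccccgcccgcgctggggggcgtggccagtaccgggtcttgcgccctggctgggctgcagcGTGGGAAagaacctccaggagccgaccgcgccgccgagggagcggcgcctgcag
Hes6, first start: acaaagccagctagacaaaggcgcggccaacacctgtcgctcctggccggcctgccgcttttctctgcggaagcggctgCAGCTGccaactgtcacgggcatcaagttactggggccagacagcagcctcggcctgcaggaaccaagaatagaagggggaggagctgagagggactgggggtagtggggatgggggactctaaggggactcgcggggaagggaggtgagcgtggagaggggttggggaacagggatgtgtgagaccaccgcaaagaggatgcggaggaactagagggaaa
Hes6, second start: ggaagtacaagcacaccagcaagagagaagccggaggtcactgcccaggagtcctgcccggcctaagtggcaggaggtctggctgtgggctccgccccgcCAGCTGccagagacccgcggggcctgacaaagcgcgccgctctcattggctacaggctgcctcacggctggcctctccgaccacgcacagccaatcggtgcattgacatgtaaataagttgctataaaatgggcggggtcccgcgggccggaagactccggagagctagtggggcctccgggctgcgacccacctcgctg
Dll1: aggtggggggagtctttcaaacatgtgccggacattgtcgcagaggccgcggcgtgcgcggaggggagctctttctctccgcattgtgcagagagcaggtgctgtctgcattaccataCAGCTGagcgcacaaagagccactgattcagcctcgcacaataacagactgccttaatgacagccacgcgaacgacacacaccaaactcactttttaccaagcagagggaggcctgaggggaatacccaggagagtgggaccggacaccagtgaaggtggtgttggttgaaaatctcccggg

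The question of the state comparison is which muscle cells carried each gene. Dll1 and Hes6 were higher in Myog-positive cells at both ages and Hey1 was higher in Pax7-positive cells at both ages, each by more than 2-fold. At E15.5 Jag1 and Heyl were also at least 2-fold higher in Pax7-positive cells and Jag2 in Myog-positive cells. Notch1, Notch2 and Hes1 lay within 2-fold of equal at both ages. A gene was counted when it had at least 20 UMIs in both states together, which 7 members passed at E12.5 and 9 at E15.5. At E12.5, 1 of the 7 was at least 2-fold higher in Pax7-positive cells, where 10.8% of 8167 genes were, and 2 of the 7 were at least 2-fold lower, where 10.3% were. At E15.5, 3 of the 9 were higher, where 16.2% of 9747 genes were, and 3 of the 9 were lower, where 8.42% were. The median gene had a log2 ratio of 0.17 at E12.5 and 0.26 at E15.5, slightly toward Pax7-positive cells. With states taken as whole muscle clusters in place of UMIs, clusters with more Pax7 than Myog stood against the others. In the E15.5 library this set a cluster of 160 cells against 2 clusters of 151 and 86 cells, and the one of 151 cells had about as much Pax7 (141 CPM) as the one of 160 (148 CPM), with 249 CPM of Myog, while the one of 86 had 5.48 CPM of Pax7. Hey1 was at 22.8 CPM in the cluster of 160 cells, 15.98 CPM in that of 151 and 2.35 CPM in that of 86. Over this split the ratios were -1.34 for Dll1 and -1.09 for Hes6, and Jag1 (0.19), Hey1 (0.97) and Heyl (0.45) were no longer past 2-fold. Heyl was also under 2-fold after thinning (0.51) and in male cells alone (0.29), and Jag1 was under it in male cells (0.79).

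**Figure D1:**
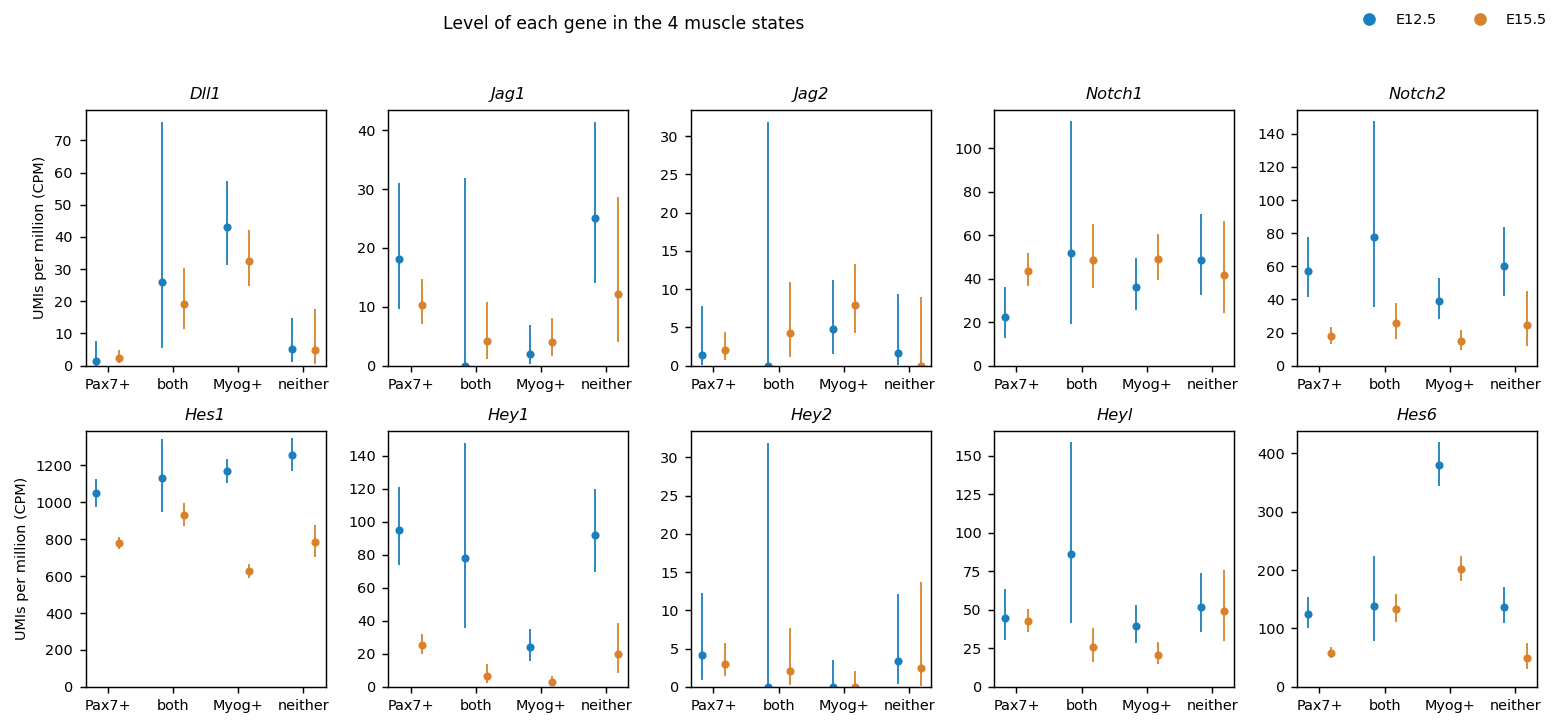
Level of each gene (CPM, linear axes from 0) in the muscle cells with Pax7 UMIs alone, both, Myog UMIs alone or neither, at E12.5 (blue) and E15.5 (orange), with 95% Poisson intervals. Dll1 and Hes6 were highest in Myog-positive cells at both ages, and Hey1 was lower there than in Pax7-positive cells at both ages.

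Dll1 encodes the Delta-like ligand that is known for signalling to muscle progenitors (ENSMUSG00000014773, chr17:15367354-15376872, minus strand). Its level at E12.5 was 1.40 CPM (0.0354 to 7.80) in Pax7-positive cells and 43.0 CPM (31.3 to 57.5) in Myog-positive cells, with 25.9 CPM (5.35 to 75.8) in cells with both and 5.02 CPM (1.04 to 14.7) in cells with neither. These are 1 UMI against 45, a log2 ratio of -4.94 (-10.3 to -2.39). At E15.5 the levels were 2.34 CPM (0.939 to 4.81) in Pax7-positive cells, 19.1 CPM (11.3 to 30.2) in cells with both, 32.7 CPM (24.8 to 42.2) in Myog-positive cells and 4.90 CPM (0.594 to 17.7) in cells with neither. The E15.5 log2 ratio was -3.81 (-5.18 to -2.67), which is 14.0-fold lower in Pax7-positive cells. So the Pax7-positive and Myog-positive intervals did not overlap at either age, and the double-positive cells lay between them in value.

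Counted by cell, 39 of the 46 muscle cells with a Dll1 UMI at E12.5 were Myog-positive and 1 was Pax7-positive. At E15.5, 37 of 55 were Myog-positive and 7 were Pax7-positive. Dll1 was detected in 16.2% of Myog-positive cells at E12.5 and in 0.135% of connective-like cells. After each cell was thinned to 2000 UMIs these shares were 8.04% and 0.0648%. By cluster of the muscle class at E12.5, Dll1 was at 5.20 CPM in the cluster led by Msc and Pax7, 62.0 CPM in the cluster led by Myog, Rbm24 and Mymx, and 13.7 CPM in the cluster led by myosin and troponin genes such as Myh3 and Mylpf. These levels came from 8, 40 and 4 UMIs.

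Jag1 encodes a Jagged ligand that is also known from vessel walls (ENSMUSG00000027276, chr2:137081456-137116644, minus strand). In muscle it lay on the Pax7 side. At E12.5 it was at 18.2 CPM (9.69 to 31.1) in Pax7-positive cells from 13 UMIs, 1.91 CPM (0.231 to 6.90) in Myog-positive cells from 2 UMIs and 25.1 CPM (14.1 to 41.4) in cells with neither factor, and no UMI was seen in the cells with both, which allows up to 25.9 CPM. The log2 ratio of 3.25 (1.11 to 6.44) is not among the counted ones because the 2 states together had fewer than 20 UMIs. At E15.5 Jag1 was at 10.3 CPM (7.03 to 14.7) in Pax7-positive and 3.94 CPM (1.59 to 8.12) in Myog-positive cells, a log2 ratio of 1.39 (0.18 to 2.82). The 2 intervals overlapped at E15.5, and the ratio came from 31 and 7 UMIs.

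Jag2 encodes the other Jagged ligand (ENSMUSG00000002799, chr12:112907819-112929776, minus strand) and was sparse in muscle. At E12.5 it had 1 UMI in Pax7-positive and 5 UMIs in Myog-positive cells, too few to count. At E15.5 it was at 2.002 CPM (0.735 to 4.36) in Pax7-positive and 7.89 CPM (4.31 to 13.2) in Myog-positive cells, a log2 ratio of -1.98 (-3.64 to -0.51). These Jag2 levels came from 6 UMIs in Pax7-positive cells and 14 UMIs in 8 Myog-positive cells, and their intervals overlapped. In value, Dll1 and Jag2 were thus higher with Myog and Jag1 with Pax7 at E15.5. Among these ligands, only Dll1 had intervals that lay apart between Pax7-positive and Myog-positive cells. With states taken as muscle clusters, Dll1 and Jag2 stayed past the fold threshold at E15.5 and Jag1 did not.

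The receptor Notch1 (ENSMUSG00000026923, chr2:26457903-26516663, minus strand) was present in all 4 muscle states. At E12.5 its level was 22.4 CPM (12.8 to 36.4) in Pax7-positive and 36.3 CPM (25.7 to 49.8) in Myog-positive cells, a log2 ratio of -0.70 (-1.64 to 0.18). At E15.5 the levels were 43.7 CPM (36.5 to 51.9) and 49.0 CPM (39.2 to 60.4), a log2 ratio of -0.16 (-0.57 to 0.24). Both intervals of the ratio held 0. At E12.5 the myosin-rich cluster had 6.83 CPM (0.827 to 24.7) from 2 UMIs, against 33.8 CPM in the cluster led by Msc and Pax7 and 54.3 CPM in the one led by Myog. At E15.5 the 3 muscle clusters lay between 45.3 and 47.8 CPM.

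The receptor Notch2 (ENSMUSG00000027878, chr3:98013527-98150361, plus strand) was also spread over the states. At E12.5 it was at 57.4 CPM (41.2 to 77.8) in Pax7-positive and 39.1 CPM (28.1 to 53.1) in Myog-positive cells, a log2 ratio of 0.55 (-0.11 to 1.21). The E15.5 levels were 17.7 CPM (13.2 to 23.1) and, in Myog-positive cells, 14.6 CPM (9.57 to 21.5), a log2 ratio of 0.27 (-0.43 to 1.01). The interval of the ratio held 0 for both receptors at both ages.

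Hey1 is a direct target of the pathway and a repressor (ENSMUSG00000040289, chr3:8663359-8667256, minus strand). At E12.5 it was at 95.2 CPM (73.9 to 121) in Pax7-positive cells, 77.8 CPM (35.6 to 148) in cells with both, 23.9 CPM (15.4 to 35.2) in Myog-positive cells and 92.1 CPM (69.4 to 120) in cells with neither. At E15.5 these levels were 25.4 CPM (19.98 to 31.7), 6.37 CPM (2.34 to 13.9), 2.82 CPM (0.914 to 6.57) and 19.6 CPM (8.47 to 38.6). The log2 ratio of Pax7-positive over Myog-positive cells was 1.995 (1.32 to 2.72) at the younger age and 3.17 (1.89 to 4.83) at the older, and Hey1 ranked 80 of 8167 and 72 of 9747 genes from the Pax7-positive end.

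Cells with neither factor carried Hey1 at the Pax7-positive level at both ages, with overlapping intervals. At E12.5, 29.1% of Pax7-positive cells had a Hey1 UMI against 9.96% of Myog-positive cells and 2.27% of erythroid-like cells (median 2614 UMIs), taken as a low reference class. After thinning to 2000 UMIs the first 2 shares were 14.5% and 5.36%. At E15.5, 54 of the 72 muscle cells with a Hey1 UMI were Pax7-positive and 5 were Myog-positive. By cluster at E12.5 the level was 89.1 CPM in the cluster led by Msc and Pax7 and 29.5 CPM (17.7 to 46.0) in the one led by Myog. The myosin-rich cluster had 3.42 CPM (0.0865 to 19.0) from 1 UMI, and its interval overlapped that of the cluster led by Myog.

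Heyl, a target of the same family (ENSMUSG00000032744, chr4:123233556-123249875, plus strand), was not apart between the states at E12.5. It was at 44.8 CPM (30.6 to 63.2) in Pax7-positive, 86.4 CPM (41.4 to 159) in double-positive, 39.1 CPM (28.1 to 53.1) in Myog-positive and 51.9 CPM (35.3 to 73.7) in neither cells. In the same order the E15.5 levels were 42.7 CPM (35.6 to 50.8), 25.5 CPM (16.3 to 37.9), 20.8 CPM (14.7 to 28.7) and 49.0 CPM (29.9 to 75.7). The log2 ratio of Pax7-positive over Myog-positive cells was 0.19 (-0.52 to 0.90) in the younger library, 1.04 (0.50 to 1.60) in the older. The E15.5 value just passed 2-fold, and relative to the median gene it was 0.78.

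Hey2, the third Hey gene (ENSMUSG00000019789, chr10:30832359-30842801, minus strand), was close to the detection limit in muscle. It had 3 UMIs in Pax7-positive cells of the E12.5 library, 9 in those of the E15.5 library, and none in Myog-positive cells at either age, which allows up to 2.86 CPM and 1.69 CPM there. Its E15.5 level of 3.003 CPM (1.37 to 5.70) in Pax7-positive cells was 1.78-fold that limit, taken as 3 counts over the group. The interval reached below the limit of 1.69 CPM, so 1.78 is no lower bound. No fold is given for E12.5, where both states were at or under the limit of 3 counts.

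Hes1, the widely used target (ENSMUSG00000022528, chr16:30064384-30067796, plus strand), was present in nearly every muscle cell and differed little between states. At E12.5 it was at 1051 CPM (977 to 1129) in Pax7-positive and 1169 CPM (1105 to 1237) in Myog-positive cells, a log2 ratio of -0.15 (-0.29 to -0.02). At E15.5 the Pax7-positive level was 779 CPM (748 to 811) and the Myog-positive level 627 CPM (591 to 665), a log2 ratio of 0.31 (0.21 to 0.42). Relative to the median gene these ratios were -0.32 and 0.06. Of the muscle cells 90.5% had a Hes1 UMI at E12.5, beside 36.4% of erythroid-like cells, and after thinning 79.3% beside 28.9%. At E15.5 the muscle share was 91.7%.

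Hes6 is a Hes family member known for promoting differentiation and for countering Hes1 (ENSMUSG00000067071, chr1:91411483-91414038, minus strand), and it lay opposite to Hey1. At E12.5 it was at 125 CPM (100.02 to 153) in Pax7-positive, 138 CPM (79.0 to 225) in double-positive, 380 CPM (343 to 419) in Myog-positive and 137 CPM (109 to 170) in neither cells. In the E15.5 library the levels were 58.4 CPM (50.1 to 67.7), 133 CPM (110 to 158), 202 CPM (182 to 224) and 49.0 CPM (29.9 to 75.7). The log2 ratio of Pax7-positive over Myog-positive cells came to -1.61 (-1.96 to -1.27) in the younger library, -1.79 (-2.06 to -1.53) in the older, that is 3.05-fold and 3.46-fold lower in Pax7-positive cells. The intervals of the 2 states did not overlap at either age.

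By cluster Hes6 differed from Dll1 at E12.5: it was at 415 CPM in the cluster led by Myog and 355 CPM in the myosin-rich cluster, where Dll1 was at 62.0 and 13.7 CPM.

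**Figure D2:**
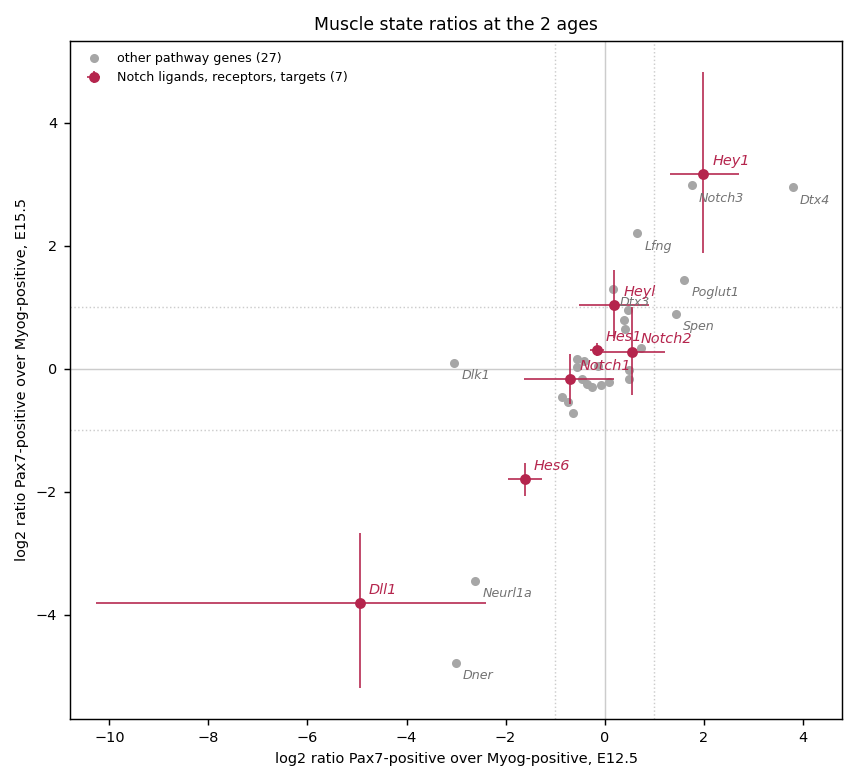
Log2 ratio of Pax7-positive over Myog-positive muscle cells at E12.5 (horizontal) and E15.5 (vertical) for the 7 members counted at both ages (red, with 95% counting intervals) and 27 other pathway genes (grey). Dotted lines mark 2-fold. Hey1 lies at the upper right beside Notch3 and Dtx4, and Dll1 and Hes6 at the lower left beside Neurl1a and Dner.

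Of 44 other pathway genes, 27 had enough UMIs in the E12.5 library, 30 in the E15.5 library. At E12.5, 4 of the 27 were at least 2-fold higher in Pax7-positive cells (Notch3, Spen, Poglut1 and Dtx4), beside 10.8% of all genes counted, and 3 lower (Dlk1, Dner and Neurl1a), beside 10.3%. At E15.5, 7 of the 30 were higher (Notch3, Aph1b, Poglut1, Lfng, Rfng, Dtx3 and Dtx4), beside 16.2%, and 2 lower (Dner and Neurl1a), beside 8.42%. Notch3, the third receptor, was past 2-fold at both ages: it was at 106 CPM (83.8 to 133) against 31.5 CPM at E12.5, a log2 ratio of 1.76 (1.15 to 2.39), and at E15.5 84.8 CPM stood against 10.7 CPM, a log2 ratio of 2.99 (2.31 to 3.74). Dtx4, a Deltex ubiquitin ligase, had in the E15.5 library 69.7 CPM against 9.01 CPM, a log2 ratio of 2.95 (2.22 to 3.79).

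On the receptor side, Lfng, a Fringe enzyme that adds sugars to Notch and changes which ligands it answers to, had a log2 ratio of 2.20 (1.20 to 3.39) at E15.5. Poglut1, which glucosylates Notch, had ratios of 1.60 (0.64 to 2.64) and 1.45 (0.63 to 2.36) at the 2 ages. Dtx3 had a ratio of 1.29 (0.46 to 2.21) at E15.5. The values for Rfng at 1.12 (-0.23 to 2.71) and Aph1b at 2.64 (0.60 to 5.77) came from 22 against 6 UMIs and from 21 against 2 UMIs.

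On the ligand side, Dner, a membrane protein described as a Notch ligand, had log2 ratios of -3.01 (-4.68 to -1.71) and -4.78 (-6.70 to -3.35), and Neurl1a, a ubiquitin ligase for ligands, had -2.62 (-4.98 to -0.92) and -3.44 (-4.83 to -2.28). Dlk1, a Delta-like protein without the domain that activates Notch, was at 28.0 CPM in Pax7-positive and 230 CPM in Myog-positive cells at E12.5, a log2 ratio of -3.04 (-3.78 to -2.38). At E15.5 the 2 states had 837 CPM and 782 CPM of Dlk1, with a ratio of 0.10 (0.00 to 0.19). The muscle class was still at least 2-fold below the rest of that library for Dlk1. How many of its Dlk1 UMIs came from other cells was not tested. Rbpj, the DNA-binding partner of the receptor, was at 271 CPM against 454 CPM at E12.5 and 226 CPM against 329 CPM at E15.5, within 2-fold.

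Outside muscle the question is which other cells carried the genes. Dll1, Heyl and Hes6 were at least 2-fold higher in the muscle class than in all other cells at both ages, 3 of 10 members where 6.02% of 15093 genes were at E12.5 and 5.89% of 15474 genes at E15.5. Endothelial-like cells were at least 2-fold above the rest for Jag2, Notch1 and Hey1 at E12.5 (3 of 10, where 11.4% of genes were) and for these and Dll1 and Jag1 at E15.5 (5 of 10, where 9.73% were). Mural-like cells, named at E15.5, were above the rest for Jag1, Notch1, Hey1, Hey2 and Heyl (5 of 10, where 7.17% were). Classes were drawn from other genes of the same cells, so these ratios describe them and are no test.

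**Figure D3:**
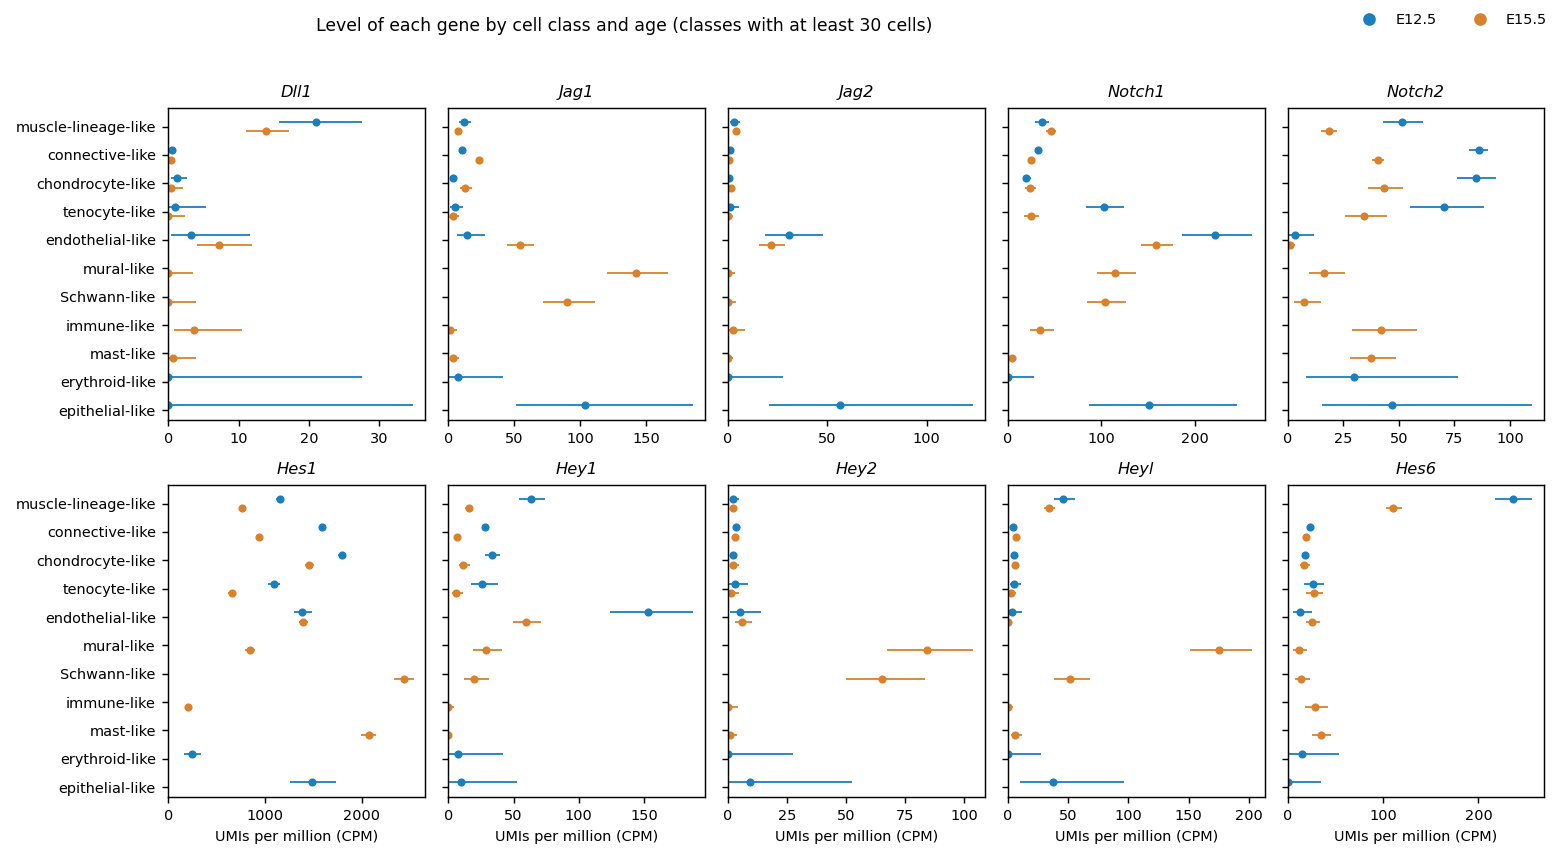
Level of each gene (CPM, linear axes from 0) in the cell classes with at least 30 cells at E12.5 (blue) and E15.5 (orange), with 95% Poisson intervals. Dll1 and Hes6 were highest in the muscle class, Notch1 in endothelial-like cells, and Jag1, Hey2 and Heyl in mural-like cells at E15.5.

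The sizes of the other classes set what could be seen. At E12.5 they held 7394 connective-like, 1798 chondrocyte-like, 490 tenocyte-like, 132 endothelial-like, 44 erythroid-like and 34 epithelial-like cells, and 492 cells had no name. At E15.5 they held 1990 connective-like, 321 chondrocyte-like, 149 tenocyte-like, 155 endothelial-like, 70 mural-like, 83 Schwann-like, 81 immune-like and 68 mast-like cells, and 551 cells had no name. Among the unnamed E15.5 cells was a cluster of 215 cells with a median of 1291 UMIs. It had Myog at 125 CPM (91.3 to 168) from 45 UMIs and Pax7 at 16.7 CPM (6.13 to 36.3). Its cells are not in the muscle class or its states. All 13 endothelial and all 14 chondrocyte markers were at least 2-fold above the rest at both ages, and all 11 mural and all 11 Schwann markers at E15.5. Of the 16 connective tissue markers 3 passed at E12.5, 13 at E15.5. The E12.5 tenocyte-like class was 1 cluster led by Dcn, Grem1, Kera and Thbs4 with 4 of 8 markers, so that it is not set beside the E15.5 class. The E12.5 epithelial-like class passed 9 of 11 markers, but its name depended on the clustering. With both libraries clustered together, 19 cells were epithelial-like and 15 Schwann-like at E12.5.

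For Dll1, the muscle class held 73.2% of the UMIs in the E12.5 library, 75.2% in the E15.5 library, while it held 8.78% and 15.02% of all UMIs. At E15.5 endothelial-like cells had 7.19 CPM (4.02 to 11.9), from 15 UMIs in 12 of 155 cells. Immune-like cells had 3.59 CPM (0.740 to 10.5), from 3 UMIs that all lay in 1 of 81 cells. That cell belonged to a cluster of 26 cells with a median of 1506.5 UMIs per cell. Connective-like cells were at 0.545 CPM (0.261 to 1.00) and 0.343 CPM (0.138 to 0.708). No Dll1 UMI was seen in mural-like or Schwann-like cells, which allows up to 2.86 CPM and 3.14 CPM.

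**Figure D4:**
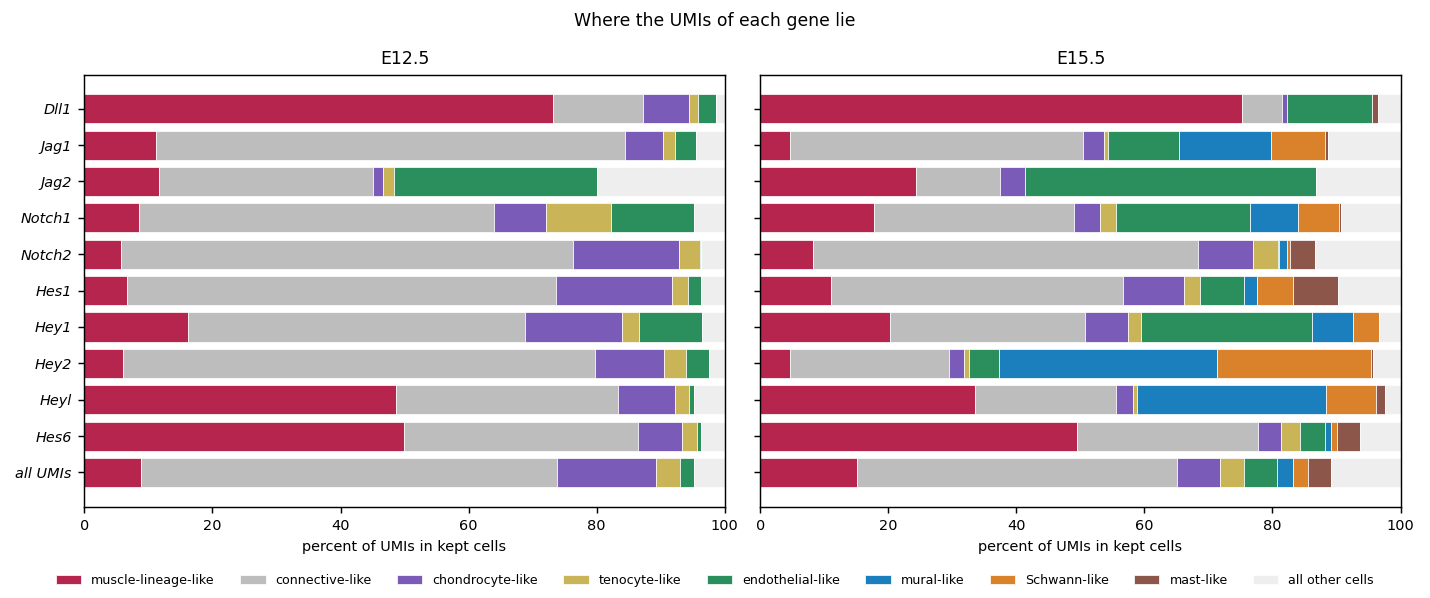
Share of each gene's UMIs (percent, kept cells) that lay in each cell class at E12.5 (left) and E15.5 (right), with all UMIs in the last bar. The muscle class held 73.2% and 75.2% of Dll1 UMIs and 49.96% and 49.5% of Hes6 UMIs, and 8.78% and 15.02% of all UMIs.

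For Jag1, the order at E15.5 among the larger classes ran from mural-like cells at 142 CPM (120 to 167) through Schwann-like at 90.1 CPM (72.1 to 111) and endothelial-like at 54.2 CPM (44.6 to 65.1) to connective-like cells at 23.1 CPM (21.0 to 25.2) and chondrocyte-like cells at 12.8 CPM (8.89 to 17.7). None of these neighbours overlapped. The muscle class was at 7.68 CPM (5.64 to 10.2), which overlapped the chondrocyte-like interval. The 113 endothelial UMIs came from 26 of 155 cells. At E12.5 the epithelial-like class had 104 CPM (51.8 to 186), from 11 UMIs in 5 of 34 cells. With at least 1000 genes per cell, Schwann-like cells were named at E12.5 and led for Jag1, so the leading class depends on the settings. The E12.5 endothelial-like class had 14.5 CPM (6.64 to 27.6), the muscle class 12.1 CPM (8.18 to 17.3) and connective-like cells 10.7 CPM (9.29 to 12.3). The intervals of these 3 overlapped.

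For Jag2, endothelial-like cells had 30.6 CPM (18.5 to 47.9) in the younger library, 21.6 CPM (15.7 to 28.9) in the older. They held 31.7% and 45.5% of all Jag2 UMIs, beside 2.20% and 5.12% of the UMIs of all genes. At E12.5 connective-like cells held 33.3% of Jag2 UMIs, beside 65.1% of the UMIs of all genes. Epithelial-like cells had 56.6 CPM (20.8 to 123) at E12.5, from 6 UMIs, with an interval that overlapped the endothelial one. The muscle class was at 2.83 CPM (1.14 to 5.83) and 3.92 CPM (2.51 to 5.83), and connective-like cells were at 1.09 CPM (0.666 to 1.68) and 0.638 CPM (0.340 to 1.09). No Jag2 UMI was seen in mural-like cells, which allows up to 2.86 CPM.

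Notch1 and Notch2 differed most in the endothelium. Among classes of at least 30 cells Notch1 was highest in endothelial-like cells, at 221 CPM (186 to 261) and 159 CPM (142 to 177), followed at E15.5 by mural-like cells at 115 CPM (94.9 to 137) and Schwann-like cells at 104 CPM (84.3 to 126), whose intervals overlapped. At E12.5 the tenocyte-like cluster was at 102 CPM. The muscle class was at 36.0 CPM (28.9 to 44.2) and 45.9 CPM (40.7 to 51.6), and connective-like cells at 31.8 CPM (29.2 to 34.5) and 24.2 CPM (22.1 to 26.4).

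Notch2 was at 3.23 CPM (0.391 to 11.7) and 0.959 CPM (0.116 to 3.46) in endothelial-like cells, from 2 UMIs at each age. It was at 86.0 CPM (81.8 to 90.3) and 40.6 CPM (37.9 to 43.4) in connective-like cells and at 84.8 CPM (76.3 to 93.9) and 43.4 CPM (35.9 to 51.9) in chondrocyte-like cells, with overlapping intervals. Erythroid-like cells at E12.5 had 29.9 CPM (8.15 to 76.6) from 4 UMIs of 1 cell. At E15.5 Notch2 in immune-like cells, 41.9 CPM (29.2 to 58.2), and mast-like cells, 37.3 CPM (28.0 to 48.7), overlapped the connective-like interval, while Schwann-like cells were at 7.34 CPM (2.95 to 15.1).

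For Hey1, endothelial-like cells had 153 CPM (124 to 187) in the younger library, 59.9 CPM (49.9 to 71.4) in the older, above the muscle class with 63.4 CPM (53.9 to 74.2) and 15.52 CPM (12.6 to 19.0). Mural-like cells, at 28.6 CPM (19.3 to 40.9), and Schwann-like cells, at 19.9 CPM (11.99 to 31.1), overlapped each other. Connective-like cells were at 28.0 CPM (25.6 to 30.5) and 6.97 CPM (5.87 to 8.21). No Hey1 UMI was seen in the 81 immune-like or 68 mast-like cells, which allows up to 3.59 CPM and 2.07 CPM.

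Hey2 and Heyl were highest in mural-like cells at E15.5. Hey2 was at 84.0 CPM (67.4 to 103) there and 65.0 CPM (49.8 to 83.3) in Schwann-like cells, with overlapping intervals, against 5.75 CPM (2.97 to 10.0) in endothelial-like and 1.96 CPM (1.01 to 3.42) in muscle cells. Those 70 mural-like and 83 Schwann-like cells held 34.1% and 24.0% of all Hey2 UMIs. Heyl was at 176 CPM (151 to 203) in mural-like, 51.4 CPM (38.0 to 67.9) in Schwann-like and 34.1 CPM (29.7 to 39.1) in muscle cells, and no UMI was seen in endothelial-like cells at E15.5, which allows up to 1.44 CPM. At E12.5 the muscle class held 48.7% of all Heyl UMIs, at 46.1 CPM (38.0 to 55.3) against 4.41 CPM (3.51 to 5.49) in connective-like cells.

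Hes1 was broad. At E15.5 it was highest in Schwann-like cells at 2437 CPM (2339 to 2538) and mast-like cells at 2071 CPM (1997 to 2146), followed by chondrocyte-like cells at 1459 CPM (1414 to 1505) and endothelial-like cells at 1397 CPM (1346 to 1448), of which the last 2 overlapped. The muscle class, at 759 CPM (737 to 781), was below connective-like cells at 940 CPM (927 to 954). Immune-like cells had 202 CPM (173 to 235). At E12.5 erythroid-like cells had 239 CPM (164 to 338), as a low reference, and the muscle class had 1155 CPM (1113 to 1198) against 1588 CPM (1570 to 1607) in connective-like cells.

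Hes6 was at 236 CPM (218 to 256) in the E12.5 muscle class, 111 CPM (103 to 120) in the E15.5 one, and the muscle class held 49.96% and 49.5% of its UMIs. The next classes at E15.5 were mast-like cells at 34.5 CPM (25.6 to 45.5), immune-like cells at 28.7 CPM (18.4 to 42.7), tenocyte-like cells at 27.1 CPM (19.5 to 36.6) and endothelial-like cells at 25.9 CPM (19.4 to 33.8), which all overlapped. Connective-like cells were at 23.3 CPM (21.2 to 25.6) and 19.1 CPM (17.2 to 21.1). Hes6 was detected in 66.8% of Myog-positive cells and 5.53% of connective-like cells at E12.5, and in 48.2% and 4.41% after thinning to 2000 UMIs.

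Several other pathway genes reached 100 CPM in a named class of at least 30 cells. Dll4, the Delta-like ligand of vessels, was at 118 CPM (92.3 to 148) and 104 CPM (91.1 to 119) in endothelial-like cells, which held 86.9% and 96.9% of its UMIs. Nrarp, a feedback inhibitor and target of the pathway, was at 163 CPM (133 to 198) and 187 CPM (169 to 206) there. Notch3 was at 215 CPM (188 to 245) in mural-like cells and had 2 UMIs in endothelial-like cells at E15.5. Adam10, a protease that cuts the receptor, was at 181 CPM (149 to 217) and 107 CPM (93.8 to 122) in endothelial-like cells. It also reached 100 CPM at E12.5 in epithelial-like cells, 123 CPM (65.3 to 210), and tenocyte-like cells, 100.3 CPM (82.0 to 122). At E15.5 Schwann-like cells had 106 CPM (86.2 to 129) of Adam10, which overlapped the endothelial interval.

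Mast-like cells stood at 376 CPM (345 to 409) for Psen2 and 217 CPM (194 to 242) for Psenen, both parts of the gamma-secretase complex. They stood at 227 CPM (203 to 252) for Furin, which cuts the receptor before it reaches the surface. Psenen also passed 100 CPM at E15.5 in Schwann-like (130 CPM), immune-like (128 CPM), chondrocyte-like (109 CPM), tenocyte-like (105 CPM) and connective-like cells (104 CPM). Immune-like cells stood at 134 CPM (110 to 161) for Adam17. Snw1 and Rbpj, parts of the nuclear complex, and the ubiquitin ligases Itch and Mib1 reached 100 CPM in 2 or more classes. Dlk1 in connective-like cells had 197 CPM (191 to 204) in the younger library, 2683 CPM (2661 to 2706) in the older.

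The age comparison asks whether the muscle class carried the genes at the same level at E12.5 and E15.5. Notch2, Hey1 and Hes6 were at least 2-fold lower at E15.5, 3 of 9 members with enough UMIs, where 19.1% of 11239 genes were. None was at least 2-fold higher, where 4.72% of genes were. The log2 ratio of E15.5 over E12.5 was -1.47 (-1.85 to -1.10) for Notch2, -2.03 (-2.41 to -1.65) for Hey1 and -1.09 (-1.25 to -0.93) for Hes6. The median gene stood at -0.36, and relative to it the 3 ratios were -1.11, -1.67 and -0.73, so that Hes6 no longer passed 2-fold.

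Age here is also a difference of library and depth, and these cannot be told apart from it. Of the muscle cells whose sex could be read from Xist and Y-linked UMIs, 138 were male and 268 female at E12.5, and 65 were male and 288 female at E15.5. The same 3 members were at least 2-fold lower in male cells alone and in female cells alone, with -1.40 and -1.55 for Notch2, -2.50 and -1.96 for Hey1 and -1.14 and -1.06 for Hes6. Pax7 itself was at 116 CPM (103 to 130) in the muscle class of the younger library, 115 CPM (107 to 124) in that of the older. Within Pax7-positive cells the ratio was -1.70 (-2.31 to -1.07) for Notch2, -1.91 (-2.40 to -1.41) for Hey1 and -1.09 (-1.47 to -0.71) for Hes6. Within Myog-positive cells it was -1.42 (-2.19 to -0.67), -3.08 (-4.82 to -1.67) and -0.91 (-1.12 to -0.70).

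Notch1 went the other way from Notch2. It was at 22.4 CPM in Pax7-positive cells of the E12.5 library, 43.7 CPM in those of the E15.5 library, a log2 ratio of 0.97 (0.21 to 1.81), and 0.43 (-0.13 to 1.02) in Myog-positive cells. Over the whole muscle class its ratio was 0.35 (0.00 to 0.71), or 0.72 relative to the median gene. Dll1 had a ratio of -0.60 (-1.11 to -0.07), Jag1 -0.66 (-1.35 to 0.05), Heyl -0.43 (-0.77 to -0.09), Hes1 -0.61 (-0.67 to -0.54) and Jag2 0.47 (-0.79 to 1.93). In male cells alone the sign of 2 of these turned, to 0.38 for Jag1 and -0.31 for Jag2. In Myog-positive cells Dll1 was at 43.0 CPM at E12.5 and 32.7 CPM at E15.5, a ratio of -0.39 (-0.98 to 0.20) that holds 0.

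**Figure D5:**
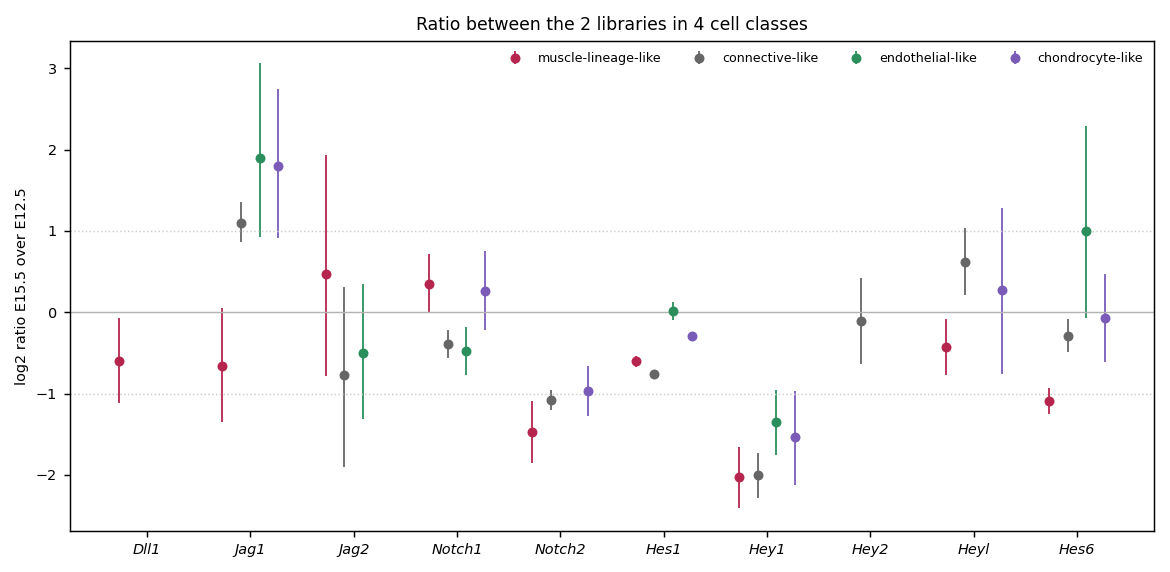
Log2 ratio of E15.5 over E12.5 for the members with at least 20 UMIs at the 2 ages together, in 4 cell classes, with 95% counting intervals; dotted lines mark 2-fold. Hey1 was lower at E15.5 in all 4 classes, between -2.03 and -1.35. Jag1 was higher in connective-like, endothelial-like and chondrocyte-like cells, and its interval in muscle holds 0. At E12.5, 3 of 16 connective tissue markers passed, and the chondrocyte-like class changed in size with the settings.

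In the other 3 classes compared, Hey1 was again lower at E15.5. Its log2 ratio was -2.01 (-2.29 to -1.74) in connective-like, -1.35 (-1.75 to -0.95) in endothelial-like and -1.53 (-2.13 to -0.97) in chondrocyte-like cells. Notch2 was at -1.08 (-1.21 to -0.96) in connective-like cells and -0.97 (-1.28 to -0.66) in chondrocyte-like cells. Relative to the median gene the Notch2 values were -0.71 and -0.70, under 2-fold, and those of Hey1 stayed past it, at -1.63, -1.12 and -1.26.

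Jag1 was higher at E15.5 in all 3: 1.10 (0.86 to 1.35) in connective-like, 1.90 (0.92 to 3.07) in endothelial-like and 1.80 (0.91 to 2.75) in chondrocyte-like cells, where the muscle class had -0.66 (-1.35 to 0.05), an interval that holds 0, and 0.38 in male cells alone. Hes6 had 1.004 (-0.08 to 2.29) in endothelial-like cells, and in connective-like cells its ratio of -0.29 became 0.08 relative to the median gene, a change of direction. In connective-like cells 1 of 9 members was at least 2-fold higher, where 10.3% of 15276 genes were, and 2 of 9 lower, where 24% were. In endothelial-like cells 2 of 6 were higher (7.05% of 8966 genes) and 1 lower (12.4%). The median gene stood at -0.37, -0.23 and -0.27 in these classes.

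For each member the genes with the most similar level pattern were sought over 18 groups, the named classes of both ages with at least 30 cells and the 2 muscle states, among 7303 genes that reached 50 CPM. The measure was the Pearson correlation of log2(CPM + 10), given as a description with no test, and the groups of 1 age share a library and its depth. Dll1 was most like Unc45b (r = 0.97), Klhl41 (0.96) and Casz1 (0.96), and Hes6 most like Chrnb1, Sync and Cdk5r1 (all 0.93). Jag1 was most like Mcam (0.87), Hey2 (0.84) and Afap1l2 (0.84). Hey2 was most like Art3 (0.91), Lgi1 (0.89) and Nr2f1 (0.88), and Heyl most like Gm47283 (0.88), Tagln (0.84) and Pdgfa (0.84).

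For the other 5 members the leading genes were these. Notch1 was most like Iffo2 (0.87), Ccnyl1 (0.855) and Sema4c (0.84), Jag2 most like Fzd6 (0.91), 2900026A02Rik (0.90) and Ablim1 (0.87), and Hey1 most like Cdc42bpb (0.87), Ccnt1 (0.85) and Rasal2 (0.83). Notch2 was most like Dapk1, 2900097C17Rik and Uhrf1bp1l (0.79, 0.79 and 0.78), and Hes1 most like Zfp24, Cdk11b and Rdx (0.83 each). Between members the highest values were 0.84 for Jag1 with Hey2, 0.82 for Dll1 with Hes6 and 0.69 for Hey2 with Heyl.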

How the data were processed

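The members and the gene lists were chosen with earlier results of these data known. Raw UMI counts per gene and barcode were deposited by the authors; they were made with Cell Ranger 4.0.0 and the build was mm10, per the submitters' processing notes, which also name Seurat 4.3.0. Settings for calling cells are not given in the sources used here. The rest was computed with Python 3.11.15 (numpy 2.4.6, scipy 1.17.1, scikit-learn 1.9.0, igraph 0.11.9, leidenalg 0.10.2).

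Kept cells had at least 500 genes and under 10% mitochondrial UMIs. Doublets were scored against simulated doublets (2 per cell), and the highest scores were removed up to 0.8% per 1000 barcodes, 1270 E12.5 cells, 190 E15.5 cells. Each library was clustered alone (2000 variable genes, 30 components, 15 neighbours, Leiden resolution 1), and the members, 44 other pathway genes and myogenic, proliferation, limb, Xist and Y-linked genes could not enter as variable genes. A cluster took a class name with at least 3 markers 2-fold higher and in 10% of its cells and 1 among its top 10 genes. Mesenchymal clusters left over were named connective-like from 3 markers against the non-mesenchymal classes.

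UMIs were summed per group. Intervals are exact Poisson for CPM, exact binomial (Clopper-Pearson) for shares and exact conditional for ratios, and a count of 0 allows up to 3 counts. The ratio script was tested on simulated data. Without replicates, a gene is counted at 2-fold with at least 20 UMIs, and no p-value is given. Named are all members, other pathway genes past 2-fold between states or at 100 CPM in a class, and per member the 3 genes with the most similar pattern. Gene positions are from GENCODE vM21 (GRCm38), and all 10 identifiers matched. Alternatives changed the doublet, gene, clustering, state, sex, weighting and threshold settings.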

Additional observations from a re-analysis of the deposited data

Results flagged for a closer look

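For 3 genes, effects pointed in opposite directions in the groups compared, with counting intervals on opposite sides of 0. The differences were not tested, since there was 1 library per age. Hes1 had a log2 ratio of Pax7-positive over Myog-positive cells of -0.15 in the E12.5 library, 0.31 in the E15.5 library, and relative to the median gene -0.32 and 0.06. Notch1 had a log2 ratio of E15.5 over E12.5 of 0.35 in the muscle class, -0.39 in connective-like cells and -0.48 in endothelial-like cells. Relative to the median gene the Notch1 values were 0.72, -0.02 and -0.25. Heyl had -0.43 in the muscle class and 0.62 in connective-like cells, and relative to the median gene -0.07 and 0.99. Of the 138 Heyl UMIs of connective-like cells at E15.5, 60 lay in a single cluster of 77 cells, at 61.8 CPM. The other connective-like clusters of that library were at 1.25 to 6.71 CPM, beside 4.41 CPM in connective-like cells at E12.5. The flagged Heyl value of connective-like cells thus leaned on that small cluster.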

How the results depend on the processing

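No paired analysis was possible because each age had 1 library. Of the members at least 2-fold apart between the states, the count was 3 (E12.5) or 6 (E15.5). It ranged from 2 to 4 at E12.5 under the alternatives. At E15.5 it was 2 with male cells only, where 30 and 21 cells were left, 4 members could be counted and Notch1 and Hes6 passed, and 3 with the states taken as muscle clusters (160 and 237 cells), where Dll1, Jag2 and Hes6 passed. Of those 237 cells, 151 belonged to a cluster with 141 CPM of Pax7, beside 148 CPM in the 160 cells. The cause of the count with male cells was not tested. Other settings gave 4 to 6. Between ages the count of 3 became 6 with a fold threshold of 1.5, which by construction counts more genes, and was 2 or 3 otherwise. The shares of all genes past the threshold under these alternatives are not given here. So whether the member counts moved with those shares cannot be read from them. All 12 ratios past 2-fold kept their direction in all 143 alternative values. Of all 25 ratios, 289 of 293 alternative values did. The others were Jag1 (0.38) and Jag2 (-0.31) between ages with male cells only, and Heyl between states at E12.5 with female cells only (-0.45) and after thinning (-0.02). Hey1 between states ranged from 1.66 to 2.87 (E12.5) or 0.97 to 3.66 (E15.5), and Heyl at E15.5 from 0.29 to 1.19. The class with the highest level, known for 20 pairs of gene and age, was the same in 13 with at least 1000 genes per cell, where Schwann-like cells led for Jag1, Hey2 and Heyl at E12.5, and in 14 to 19 otherwise. Jag1, Jag2 and Hey2 had few UMIs in muscle, so their intervals there are wide. Why these counts were low was not tested.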

Other observations

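One connective-like cluster at E15.5 stood apart for these genes, and it was singled out after its values were seen. It held 77 cells led by Aldh1a2, Cxcl13, Il33 and Ccl11. Heyl was at 61.8 CPM there and at 1.25 to 6.71 CPM in the other 6 connective-like clusters, Jag1 at 72.1 CPM against 10.01 to 36.2 CPM, and Hey1 at 30.9 CPM against 2.92 to 13.6 CPM. Hey2 was highest in another cluster, led by Twist2, Stmn2 and Irx1, at 30.04 CPM.

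The 34 epithelial-like cells at E12.5, whose top genes also held Ednrb and Dct, had Notch1 at 151 CPM (86.2 to 245). In the 24 epithelial-like cells at E15.5 it was at 169 CPM (131 to 214), with Jag1 at 89.3 CPM (62.5 to 124).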
